A study of Mus musculus with 6 samples.

Results

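The genes described here encode the endogenous MLL protein and the cofactors through which MLL fusion proteins act: Kmt2a, Men1, Psip1, Dot1l, Mllt10, Mllt1, Mllt3, Aff1, Aff4 and Cdk9. They were chosen by name, and all 10 were found among the 35869 gene symbols listed in each library. All 10 also passed the filter on low values, 1 TPM or more in 3 or more libraries, which 13575 genes passed. TPM values allow for transcript length and have the same sum in every library, so levels of different genes can be set side by side.

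MLL, encoded by Kmt2a, is a histone H3 lysine methyltransferase that holds HOXA genes active in blood progenitors. Menin and LEDGF attach MLL to chromatin. In leukaemia a chromosome break joins the start of MLL to the end of a partner such as AF9 (Mllt3), ENL (Mllt1), AF10 (Mllt10) or AF4 (Aff1). The partners bring in the histone methyltransferase DOT1L or the super elongation complex, in which the kinase CDK9 releases paused RNA polymerase II.

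RNA was taken from mouse acute myeloid leukaemia cells of the retroviral MLL-AF9 line, grown with SCF, IL6 and IL3. Both groups carried floxed Chaf1b alleles and the inducible recombinase CreERT2. In the 3 knockout (KO) libraries recombination had been induced with β-estradiol, and in the 3 control (WT) libraries ethanol had been added in its place as vehicle. Cells were lysed 48 hours later. Values below are listed in the order of replicates 1, 2 and 3. CHAF1B belongs to CAF-1, the complex that lays histones on newly copied DNA. The series asks what this subunit does in keeping leukaemic cells. The ligand was present in KO alone, so its own effect and that of the deletion cannot be told apart. The design text calls the cells clones but does not tie replicates to clones or cultures, so the p-values measure spread between samples that may be technical. The sources used here give neither the age and strain of the source animals nor the species of the MLL-AF9 sequence in the retrovirus.

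Chaf1b was at 17.7, 14.4 and 14.2 TPM in the KO libraries, against 48.6, 49.0 and 50.6 TPM in the WT libraries. The labelled cell type was checked on markers: Ptprc, the leukocyte antigen CD45, lay between 25.6 and 27.4 TPM in KO and between 26.4 and 29.7 TPM in WT. Of 10 leukaemia and progenitor markers 9 were tested, 2 were higher (Mpo and Elane, granule enzymes) and 0 lower by limma. Beside this count and those of the other marker lists below stand 12.9% of all tested genes called higher and 6.11% lower. Mpo was at 1018, 2311 and 2233 TPM in KO, against 19.4, 127.6 and 83.8 TPM in WT, and Elane between 2601 and 3533 TPM in KO and between 1152 and 1562 TPM in WT. The 10 markers summed to 4179, 6302 and 6368 TPM in KO, against 1886.5, 2012 and 2170 TPM in WT. Mpo and Elane made up most of each sum. Cd34 was lower in every KO library, at 91.5, 83.2 and 79.8 TPM, against 138.2, 102.9 and 106.9 TPM in WT. Kit was slightly higher, between 38.4 and 42.1 TPM in KO and between 33.5 and 38.0 TPM in WT. Neither was called. Csf1r and Flt3 were at 1.8 TPM or less in every library. Of 19 markers of other lineages, 10 stayed below 1 TPM in every library, and Ebf1, Cd8a and Ncr1 were among those listed at 0 in all 6. Of the 8 tested, 5 were higher and 0 lower: Pf4, a platelet chemokine (11.3, 28.8 and 23.0 TPM in KO, against 0.3, 0.1 and 0.3 TPM in WT), Gata1, Klf1, Col1a1 and Cd79a, the last 4 at 5.1 TPM or less in every library. The 19 summed to between 97.5 and 135.3 TPM in KO and between 74.5 and 102.5 TPM in WT. Pecam1 was the largest part of each sum, between 63.4 and 66.2 TPM in KO and between 60.8 and 79.1 TPM in WT. KO replicate 1 and WT replicate 1 stood apart from the other 2 libraries of their groups, with r of log2(TPM + 1) across genes of 0.991 and 0.992 for KO replicate 1 and of 0.984 and 0.986 for WT replicate 1, against 0.998 within each remaining pair (genes are not independent replicates). The column header of WT replicate 1 carries a note of a replacement that the labels do not explain. The summed TPM of 13 late granulocyte markers was 781, 1653 and 1478.5 in KO, and 629, 204 and 239 in WT. Of the 10 tested, 5 were higher (Camp, Cd177, Lcn2, S100a8 and S100a9) and 0 lower. The list was not uniform: among WT libraries Ly6g, Ngp, Cxcr2, Mmp9 and Mmp8 were high in replicate 1 alone. Lcn2, which was called higher in KO, was also highest in that WT library (194.3, 44.4 and 57.0 TPM in WT), as were Padi4 and S100a9. Ly6g was at 13.8, 26.4 and 21.8 TPM in KO, against 62.0, 1.9 and 3.0 TPM in WT. S100a8 was at 240.9, 558.3 and 507.3 TPM in KO, against 50.0, 37.2 and 47.6 TPM in WT. The part of these 3 marker lists in the results below was not tested. The labels put sequencing at roughly 120 M reads a library, but how many of them lie behind a TPM value is unknown.

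The promoters of 3 members are shown because Kmt2a and Mllt3 moved together and Mllt1, the closest relative of Mllt3, moved the other way. The runs come from RefSeq windows on GRCm38.p6, the assembly that mm10 names, minus strand, written 5′ to 3′. They hold the bases upstream of the annotated gene (chr9:44881353-44881539, chr4:88033408-88033657 and chr17:56935510-56935638), and capitals mark GC boxes (GGGCGG on either strand, overlapping matches included).
Kmt2a: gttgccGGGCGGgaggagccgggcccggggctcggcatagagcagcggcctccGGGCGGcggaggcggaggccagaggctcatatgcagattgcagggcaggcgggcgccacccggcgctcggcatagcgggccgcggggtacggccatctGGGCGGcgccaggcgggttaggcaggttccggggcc
Mllt3: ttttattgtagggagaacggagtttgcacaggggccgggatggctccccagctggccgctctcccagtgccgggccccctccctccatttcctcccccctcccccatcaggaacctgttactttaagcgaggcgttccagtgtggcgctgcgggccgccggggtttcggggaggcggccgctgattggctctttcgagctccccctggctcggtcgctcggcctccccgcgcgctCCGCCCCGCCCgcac
Mllt1: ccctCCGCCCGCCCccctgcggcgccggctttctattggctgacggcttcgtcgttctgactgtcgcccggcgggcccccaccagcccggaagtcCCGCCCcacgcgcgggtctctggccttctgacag
In the whole 300-base windows, which run into the gene, the GC box occurred 5 times for Kmt2a, 3 times for Mllt3 and 7 times for Mllt1. It was found in 35.7% of all 32851 RefSeq windows of this length. The window of Mllt1 also held 1 match to the ETS motif CCGGAAGT on either strand, which 3.89% of all windows hold, while those of Kmt2a and Mllt3 held none. The E-box CACGTG (7.15% of all windows) and TATAAA (13.6%) were found in none of these 3 windows. GC content was 75.7% for Kmt2a, 70.3% for Mllt3 and 77.7% for Mllt1, against a median of 52.7% over all windows. The motifs are matches of letters and not tested sites.

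Kmt2a and Mllt3, the genes that the MLL-AF9 fusion joins, had the largest changes among the 10 members, and both were higher in KO. Kmt2a (chromosome 9, 44803355 to 44881352) was at 52.7, 70.1 and 67.5 TPM in KO, against 22.0, 31.4 and 32.4 TPM in WT. Every KO library was above every WT library, and replicate 1 was the lowest library of both groups. The mean was 63.4 ± 9.39 TPM in KO and 28.6 ± 5.74 TPM in WT (SD, n = 3 each), a ratio of 2.22. On the log2(TPM + 1) scale Kmt2a rose by 1.13 (SE 0.18, 95% interval 0.71 to 1.56), with an adjusted p of 0.0155 from limma with Benjamini-Hochberg adjustment over all 13575 genes tested.

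Mllt3 encodes AF9, a YEATS-domain protein that reads acylated histone H3 and binds both DOT1L and AFF4. It lies on chromosome 4, from 87769925 to 88033407. Mllt3 was at 16.7, 23.3 and 22.7 TPM in KO, against 7.3, 9.6 and 10.2 TPM in WT. The groups did not overlap, and replicate 1 was again the lowest library of each group. The mean was 20.9 ± 3.65 TPM in KO and 9.03 ± 1.53 TPM in WT (SD, n = 3 each), a ratio of 2.31. Mllt3 rose by 1.12 on the log2(TPM + 1) scale (SE 0.17, 95% interval 0.72 to 1.52, limma adjusted p = 0.0150). Across the transcriptome 524 of 13575 genes had a higher log2 fold change than Kmt2a and 527 a higher one than Mllt3, the last count including Kmt2a.

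Within each library the level of Kmt2a was about 3 times that of Mllt3. The ratio of their TPM was 3.16, 3.01 and 2.97 in KO, against 3.01, 3.27 and 3.18 in WT. The ratio averaged 3.05 ± 0.10 in KO and 3.15 ± 0.13 in WT (SD, n = 3 each), and the groups overlapped (exact two-sided permutation p = 0.2; the smallest possible is 0.1). This pair was chosen after its values were seen. Over the 6 libraries the SD of the log2 ratio was 0.055. Of 10026 other genes that averaged 5 TPM or more and had no value of 0, none had a steadier ratio to Mllt3 than Kmt2a, and 1 gene, Kcnj2, had a steadier ratio to Kmt2a (SD 0.050). Next after Kmt2a in steadiness to Mllt3 came the marker Elane (SD 0.065). The median SD over these genes was 0.734 for the ratio to Mllt3 and 0.710 for the ratio to Kmt2a. Since both genes rose in KO, any unchanged gene has a large SD here, so these medians are descriptions. The retroviral fusion transcript holds sequence of both genes, and in gene-level TPM its reads cannot be told apart from those of the endogenous genes where they were counted under these symbols. Whether they were so counted was not tested.

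**Figure D1:**
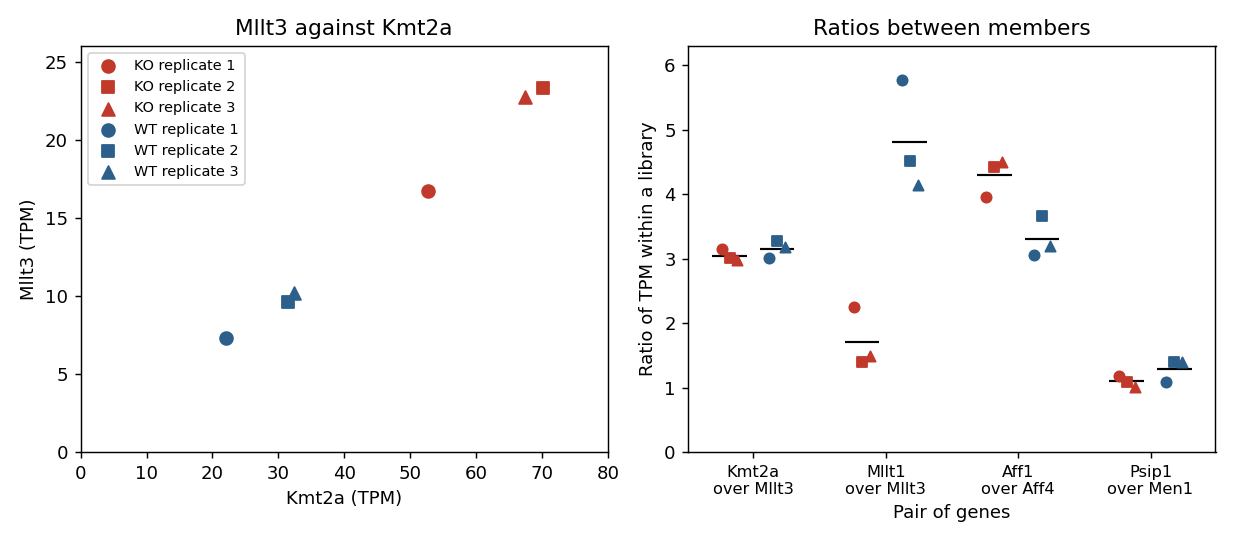
Left, TPM of Mllt3 against TPM of Kmt2a, 1 point per library (red KO, blue WT; marker shape gives the replicate number). Right, ratio of TPM within a library for 4 pairs of members, with bars at the group means (n = 3 each). The Kmt2a over Mllt3 ratio stays between 2.97 and 3.27 in all 6 libraries, while the Mllt1 over Mllt3 ratio is lower in every KO library.

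RefSeq places a long noncoding RNA gene across the start of Kmt2a and another inside Mllt3; both were chosen for this overlap, and the sources used here do not give the strand setting of the counting. Gm39326 (chromosome 9, 44854919 to 44884837) was at 4.4, 5.2 and 4.4 TPM in KO, against 1.9, 2.2 and 2.0 TPM in WT, and rose by 0.90 on the log2(TPM + 1) scale (limma adjusted p = 0.0113). Gm34232 (chromosome 4, 87968701 to 87995063) was at 0.8, 0.9 and 0.9 TPM in KO, against 0.3, 0.5 and 0.5 TPM in WT, too low to be tested. Other members overlap annotated genes too. Mllt10 overlaps Gm39761, between 9.6 and 10.4 TPM over the 6 libraries, and Dnajc1, between 15.5 and 16.4 TPM, and Psip1 overlaps Snapc3. The values of overlapping genes, these members included, are uncertain, since reads may have been shared or withheld between them.

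The genes outside the member list whose pattern over the 6 libraries was most like Kmt2a, by Pearson's r of log2(TPM + 1), were Kcnj2, Emilin1 and Twf2 (r of 0.999, 0.999 and 0.998). Kcnj2, an inwardly rectifying potassium channel gene, was at 36.9, 48.3 and 44.8 TPM in KO, against 16.2, 22.3 and 23.0 TPM in WT. Those most like Mllt3 were Kbtbd6, Ccp110 and Tfec (r of 0.999, 0.997 and 0.997). Tfec, a transcription factor of the MITF family, was at 38.3, 48.7 and 47.1 TPM in KO, against 24.6, 28.1 and 28.2 TPM in WT. The r between Kmt2a and Mllt3 themselves was 0.997. The 6 libraries fall into 2 groups, so that many genes that differ between the groups have a high r, whether their change is large or small. Twf2 rose by only 0.12 on the log2(TPM + 1) scale and was not called (limma adjusted p = 0.078). These values are descriptions.

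ENL, encoded by Mllt1 (chromosome 17, 56892608 to 56935509), is the paralogue of AF9 and a YEATS-domain subunit of the super elongation complex. Mllt1 was the only member called lower in KO by limma. It was at 37.5, 32.6 and 33.9 TPM in KO, against 42.1, 43.4 and 42.2 TPM in WT. The highest KO library lay below the lowest WT library. The mean was 34.7 ± 2.54 TPM in KO and 42.6 ± 0.72 TPM in WT (SD, n = 3 each), and Mllt1 fell by 0.29 on the log2(TPM + 1) scale (SE 0.06, 95% interval -0.45 to -0.14, limma adjusted p = 0.0311).

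The balance between the paralogues differed in the same direction in all libraries. Mllt1 was at 2.25, 1.40 and 1.49 times the level of Mllt3 in KO, against 5.77, 4.52 and 4.14 times in WT. The ratio averaged 1.71 ± 0.46 in KO and 4.81 ± 0.85 in WT (SD, n = 3 each), lower in 3 of 3 KO libraries, with a log2 difference of -1.51. The exact two-sided permutation p was 0.1, the smallest that 3 against 3 libraries allow, and 0.15 after Benjamini-Hochberg adjustment over the 3 ratios that were planned. What was said of fusion reads under Mllt3 holds for this ratio too.

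Aff1 and Aff4 encode the scaffold proteins AF4 and AFF4, each of which can assemble a super elongation complex. Aff1 (chromosome 5, 103692362 to 103855322) was at 38.8, 44.2 and 41.9 TPM in KO, against 35.1, 32.6 and 31.9 TPM in WT. The groups did not overlap. The mean was 41.6 ± 2.71 TPM in KO and 33.2 ± 1.68 TPM in WT (SD, n = 3 each), and Aff1 rose by 0.32 on the log2(TPM + 1) scale (SE 0.07, 95% interval 0.15 to 0.48, limma adjusted p = 0.0297). Aff4 (chromosome 11, 53350640 to 53421830) was at 9.8, 10 and 9.3 TPM in KO, against 11.5, 8.9 and 10 TPM in WT, with overlapping groups and a log2 fold change of -0.05 (95% interval -0.28 to 0.18, limma adjusted p = 0.73).

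The ratio of Aff1 to Aff4 was 3.96, 4.42 and 4.505 in KO, against 3.05, 3.66 and 3.19 in WT. All 3 KO libraries had a higher ratio than all 3 WT libraries. The exact permutation p was 0.1, and 0.15 after adjustment over the 3 planned ratios.

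Cdk9 (chromosome 2, 32705782 to 32712784), the kinase of P-TEFb, was the member with the highest level. It was at 87.1, 87.5 and 85.0 TPM in KO, against 108.9, 87.9 and 89.0 TPM in WT. The KO libraries lay just below WT replicates 2 and 3, and WT replicate 1 stood well above all others. The log2 fold change was -0.13 (95% interval -0.34 to 0.08, limma adjusted p = 0.32), and without WT replicate 1 it was -0.03 (adjusted p = 0.51).

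Dot1l encodes the only known methyltransferase for the globular-domain lysine of histone H3 that marks transcribed genes, and AF10 (Mllt10) is its partner. Dot1l (chromosome 10, 80755101 to 80795461) was at 10.5, 9.0 and 9.2 TPM in KO, against 10.7, 12.1 and 11.5 TPM in WT. The groups did not overlap, but KO replicate 1 and WT replicate 1 nearly met. The log2 fold change was -0.24 (SE 0.08, 95% interval -0.43 to -0.04), and it was not called (limma adjusted p = 0.086). Mllt10 (chromosome 2, 18055160 to 18212390) had the lowest level of the members, at 3.1, 3.0 and 2.9 TPM in KO and 3.1 TPM in each WT library (log2 fold change -0.04, 95% interval -0.20 to 0.13, limma adjusted p = 0.73).

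Menin and LEDGF, encoded by Men1 and Psip1, are the chromatin tethers. Men1 (chromosome 19, 6334979 to 6340894) was at 37.4, 37.7 and 37.3 TPM in KO, against 35.2, 32.1 and 33.2 TPM in WT, without overlap. The log2 fold change was 0.16 (SE 0.05, 95% interval 0.03 to 0.29), and it was not called (limma adjusted p = 0.080). Psip1 (chromosome 4, 83455680 to 83486463) was at 44.2, 40.9 and 37.9 TPM in KO, against 38.1, 44.9 and 46.3 TPM in WT. The groups overlapped, and replicate 1 was the highest library of KO and the lowest of WT. The log2 fold change of Psip1 was -0.07 (95% interval -0.30 to 0.16, limma adjusted p = 0.63). The ratio of Psip1 to Men1 averaged 1.09 ± 0.08 in KO and 1.29 ± 0.18 in WT (SD, n = 3 each), with overlapping groups (exact permutation p = 0.3, adjusted p = 0.3).

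**Figure D2:**
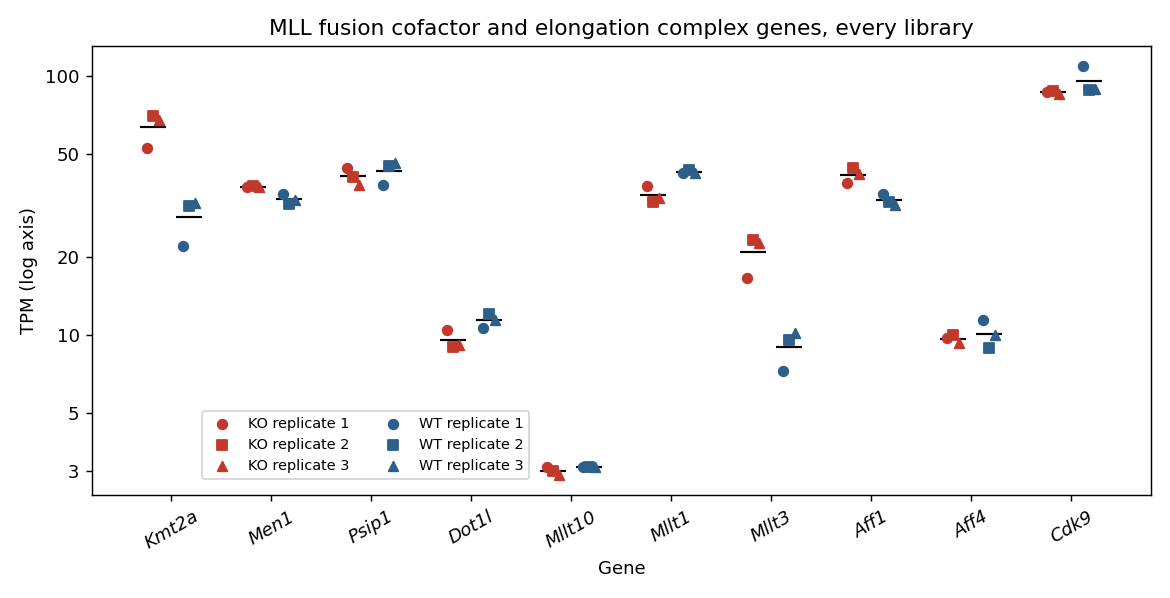
TPM of the 10 members on a log axis, KO in red on the left and WT in blue on the right of each gene, 1 point per library and bars at the group means (n = 3 each). Kmt2a and Mllt3 show the widest gaps between groups, and Mllt10 the lowest level at about 3 TPM.

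Cdk9 had the highest level, Mllt10 the lowest and Aff4 the same place in both groups, while the other 7 members changed places. In KO the order ran Cdk9, Kmt2a, Aff1, Psip1, Men1, Mllt1, Mllt3, Aff4, Dot1l and Mllt10. The neighbours Aff1 and Psip1, Men1 and Mllt1, and Aff4 and Dot1l had overlapping ranges there. In WT the order ran Cdk9, Psip1, Mllt1, Men1, Aff1, Kmt2a, Dot1l, Aff4, Mllt3 and Mllt10. Ranges of neighbours overlapped between Psip1 and Mllt1, along Men1, Aff1 and Kmt2a, and along Dot1l, Aff4 and Mllt3. Kmt2a ranked 2 of 10 in KO and 6 of 10 in WT, Mllt3 ranked 7 of 10 in KO and 9 of 10 in WT, and Mllt1 ranked 6 of 10 in KO and 3 of 10 in WT. The limit given above on fusion reads under Kmt2a and Mllt3 holds for these ranks too. Aff1 was above Mllt1 in KO and below it in WT, with ranges apart in both groups.

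Of the 10 members, 4 were called at an adjusted p under 0.05 in limma, 3 higher and 1 lower in KO. Across all tested genes 19.0% were called, 12.9% higher and 6.11% lower (1745 and 830 genes; 1346 and 1722 under quantile normalization, with Kmt2a, Mllt3 and Aff1 still called higher and Mllt1 lower). The groups did not overlap for 7 members, 4 with KO above and 3 with KO below, against 42.8% of all tested genes (23.4% above and 19.5% below). Each of these 7 had an exact permutation p of 0.1, the smallest possible. The median log2 fold change of the members was -0.04, beside 0.01 for all tested genes.

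**Figure D3:**
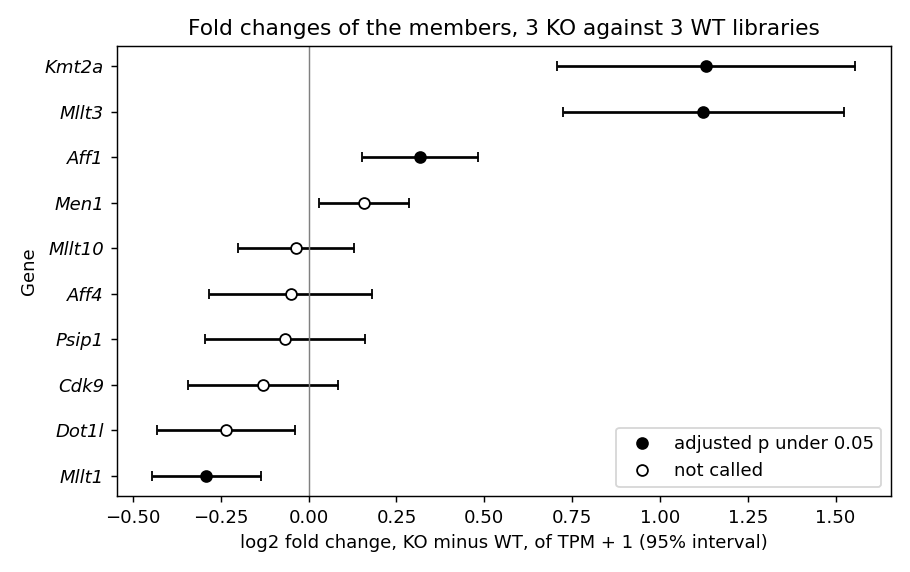
Log2 fold change of TPM + 1, KO minus WT, for each member, with 95% intervals from limma (3 KO and 3 WT libraries; filled points are called). Kmt2a at 1.13 and Mllt3 at 1.12 lie apart from the other 8, which lie between -0.29 and 0.32.

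The calls depended on which library was left out. Without KO replicate 2, KO replicate 3, WT replicate 2 or WT replicate 3, limma called 0 of the 10 members, and 4 had an unadjusted p under 0.05 each time. Across all genes these fits called 0.803% without KO replicate 2, 0.184% without WT replicate 2, 0.110% without WT replicate 3 and 0 genes without KO replicate 3, and between 3220 and 3886 genes had an unadjusted p under 0.05. The log2 fold change of Kmt2a in these 4 fits lay between 1.05 and 1.23 and that of Mllt3 between 1.04 and 1.21. Without KO replicate 1, 5 members were called, Dot1l in addition (-0.30, adjusted p = 0.039), where 27.1% of all genes were. Without WT replicate 1, 6 members were called, Dot1l (adjusted p = 0.045) and Men1 (adjusted p = 0.025) in addition, where 35.7% of all genes were. Without both replicates numbered 1, 7 members were called, Men1, Dot1l and Psip1 in addition, where 55.8% of all genes were. With the replicate number as a block, 2 members were called, Kmt2a and Mllt3, where 2.45% of all genes were.

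**Figure D4:**
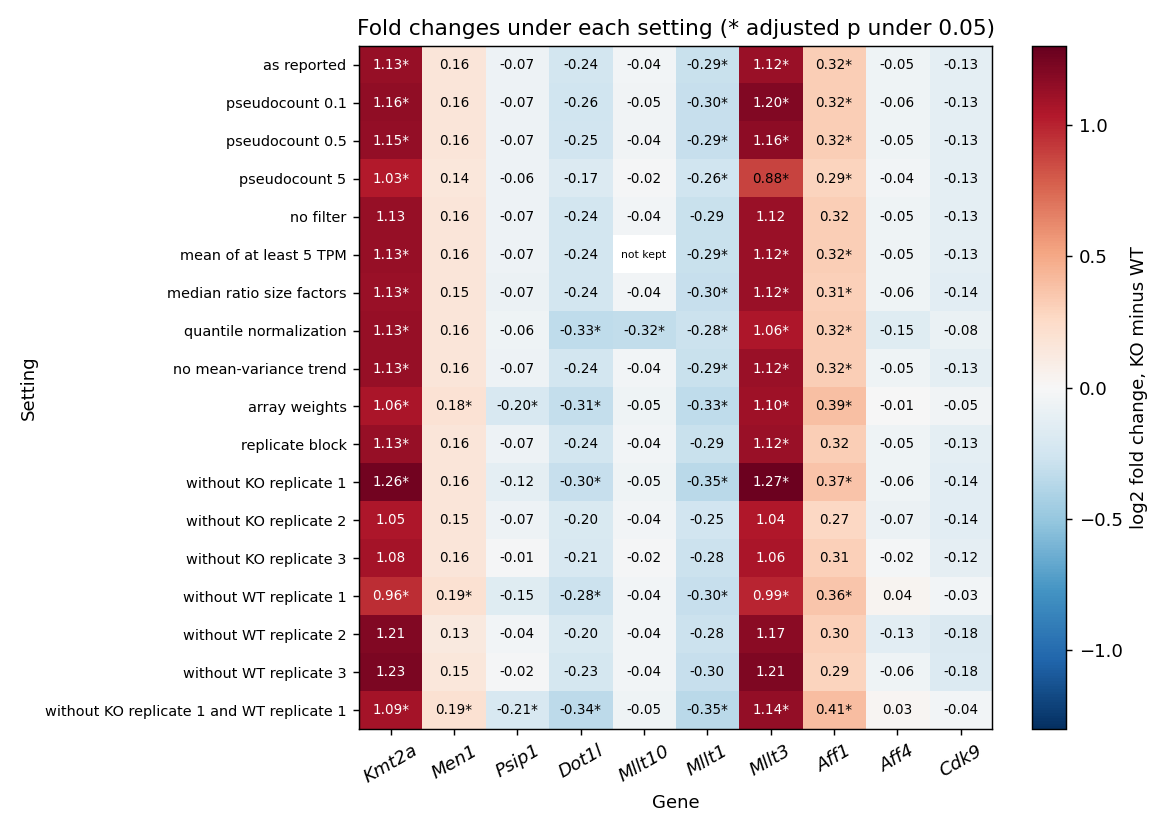
Log2 fold change, KO minus WT, of each member (columns) as reported and under 17 other settings (rows), with an asterisk where the limma adjusted p was under 0.05. Kmt2a ranges from 0.96 to 1.26 and Mllt3 from 0.88 to 1.27, while Aff4 is close to 0 and positive in 2 settings.

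Genes that work with the members were compared as 5 lists, whose counts stand beside 12.9% of all tested genes higher and 6.11% lower. In each of the limma fits without KO replicate 2, KO replicate 3, WT replicate 2 or WT replicate 3, 0 genes of the 5 lists were called (1 to 9 a list had an unadjusted p under 0.05). MLL belongs to the COMPASS family of methyltransferases, whose shared core subunits include WDR5. Of 18 tested COMPASS genes 1 was higher and 1 lower, with a median log2 fold change of -0.09. Without WT replicate 1, 7 were called (35.7% of all genes), and without KO replicate 1, 3 were (27.1% of all genes). Pagr1a, a subunit of the KMT2C and KMT2D complexes, was at 164.5, 170.5 and 168.1 TPM in KO, against 148.8, 150.0 and 151.9 TPM in WT (limma adjusted p = 0.041). Wdr5 was at 105.1, 96.9 and 96.7 TPM in KO, against 113.7, 117.4 and 117.9 TPM in WT (limma adjusted p = 0.034). Kmt2b, the closest relative of Kmt2a, was at 15.4, 13.8 and 13.6 TPM in KO, against 14.8, 16.5 and 16.3 TPM in WT, and was not called (limma adjusted p = 0.20); it was chosen after its values were seen.

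Of 14 tested genes of P-TEFb, its regulators and other elongation complex subunits, 2 were higher, a share close to that of all genes, and none lower, with a median log2 fold change of 0.06. Without KO replicate 1 or WT replicate 1, 4 were called (27.1% and 35.7% of all genes), and without both 11 were (55.8% of all genes). Hexim1 encodes an inhibitor of P-TEFb within the 7SK particle. It was at 113.4, 120.3 and 115.8 TPM in KO, against 104.5, 94.0 and 101.3 TPM in WT (log2 fold change 0.22, limma adjusted p = 0.043). Aff2, a relative of Aff1 and Aff4, was at 6.5, 8.7 and 8.1 TPM in KO, against 4.9, 4.6 and 4.6 TPM in WT (log2 fold change 0.61, limma adjusted p = 0.020). The cyclin partners of CDK9, Ccnt1 and Ccnt2, had overlapping groups and log2 fold changes of -0.07 and 0.01; they were named after their values were seen.

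Of 13 pausing and PAF1 complex genes, none was higher and 1 lower, a share close to that of all genes, with a median log2 fold change of -0.10. Without KO replicate 1 or WT replicate 1, 3 were called (27.1% and 35.7% of all genes), and without both 7 were (55.8% of all genes). The gene called was Nelfcd, a subunit of the negative elongation factor, at 55.8, 54.3 and 52.9 TPM in KO and 66.6, 64.1 and 61.1 TPM in WT (limma adjusted p = 0.034). Of 9 relatives and partners of DOT1L, AF9 and LEDGF, 1 was higher and 1 lower, with a median of 0.05. Without KO replicate 1, 3 were called (27.1% of all genes), and without WT replicate 1, 4 were (35.7% of all genes). The gene called higher and the gene called lower are both of the LEDGF family. Hdgfrp3 was at 54.2, 63.0 and 58.1 TPM in KO, against 42.4, 47.4 and 48.6 TPM in WT (limma adjusted p = 0.037). Hdgf was at 162.0, 145.3 and 149.9 TPM in KO, against 169.8, 181.6 and 183.0 TPM in WT (limma adjusted p = 0.046).

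Of 16 tested genes known as targets of MLL-AF9, 4 were higher and 4 lower, with a median log2 fold change of 0.08. Of these, 0 were called in the 4 fits named above, without the filter or with the replicate number as a block (at an unadjusted p under 0.05 they were 11 of 18 without the filter and 9 of 16 with the block). Mef2c and Eya1, also on the list, did not pass the filter on low values. Runx1, a master regulator of blood formation, was at 14.6, 20.6 and 18.2 TPM in KO, against 11.0, 9.0 and 9.4 TPM in WT (log2 fold change 0.79, limma adjusted p = 0.019). Zeb2 and Gfi1, which encode transcriptional repressors, rose by 0.46 and 0.54 (limma adjusted p = 0.023 for both), and Cdk6, a cell cycle kinase gene, rose by 0.33 (adjusted p = 0.038). Myc, a growth regulator, was at 88.4, 70.5 and 72.7 TPM in KO, against 109.2, 105.7 and 104.7 TPM in WT (log2 fold change -0.47, limma adjusted p = 0.024). Hoxa9, the target through which MLL fusions are best known to act, was at 186.7, 165.6 and 169.8 TPM in KO, against 203.0, 218.8 and 216.2 TPM in WT (log2 fold change -0.29, limma adjusted p = 0.029). Hoxa10 fell by 0.22 and the survival gene Bcl2 fell by 0.45 (limma adjusted p = 0.039 and 0.040). Meis1, the cofactor of HOXA9, was at 15.8, 16.6 and 16 TPM in KO and 14.4, 15.6 and 15.7 TPM in WT and was not called (limma adjusted p = 0.37).

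**Figure D5:**
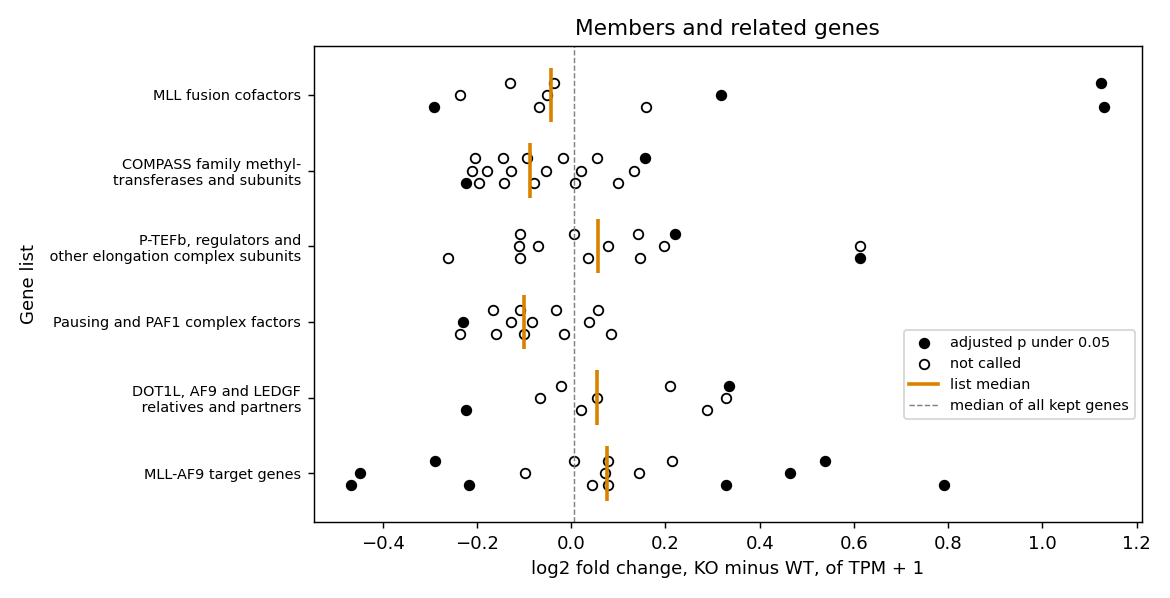
Log2 fold change of TPM + 1, KO minus WT, for the members and 5 lists of related genes, 1 point per gene (filled where called by limma), with orange bars at the list medians and a dashed line at the median of all tested genes, 0.01. Kmt2a and Mllt3 at the top right exceed every gene of the 5 lists, where the highest is Runx1 at 0.79.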

How the data were processed

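Stranded libraries of polyadenylated RNA were read as paired ends of 100 bp, per the labels' protocols. The submitters' processing notes name, for mm10, STAR 2.6.1e as well as featureCounts 1.6.2, Trim Galore 0.4.2 and cutadapt 1.9.1. The authors deposited 1 TPM value per gene symbol and library, rounded to 1 decimal. The sources used here do not give the strand setting, the annotation or the step that made TPM. The labels put sequencing at roughly 120 M reads a library, but the reads counted per gene, and so the counting error, are unknown.

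The 13575 genes with 1 TPM or more in 3 or more of the 6 libraries were compared (22294 were left out). The values log2(TPM + 1) were fitted with limma 3.58.1 under R 4.3.3, for KO against WT with no covariate, eBayes following a mean-variance trend, two-sided, with p-values adjusted by Benjamini-Hochberg over all tested genes. Every fold change is on that scale, which understates changes of low genes. Permutation tests used SciPy 1.17.1. The 10 members, the related lists and the alternatives were chosen with earlier results of these data known. Named genes are the members and, per list, the 3 called genes of lowest adjusted p in the direction with more calls and 1 in the other (all 8 called targets of MLL-AF9, since the directions tied). Meis1, Mef2c, Eya1, Kmt2b, Ccnt1, Ccnt2 and the overlapping genes were added after their values were seen. Likeness was taken over genes averaging 5 TPM or more, leaving out gene models and the members. Positions are RefSeq's on GRCm38.p6, where 9 of 10 members had a promoter window. No 2 libraries shared more than 8.48% of values exactly, so none was counted as a duplicate.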

Additional observations from a re-analysis of the deposited data

How the results depend on the processing

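All 10 members were refitted under 17 alternatives (Mllt10 under 16, since it lies below a mean of 5 TPM). Under every one Kmt2a, Mllt3, Aff1 and Men1 kept a positive and Mllt1, Dot1l, Psip1, Mllt10 and Cdk9 a negative log2 fold change. Aff4 turned positive without WT replicate 1 (0.036) and without both replicates numbered 1 (0.03). With the replicate block, the replicate number as a term, 333 genes (2.45%) and 2 members were called, Kmt2a and Mllt3 at the same log2 fold change. Mllt1 (-0.29, limma adjusted p = 0.094) and Aff1 (0.32, limma adjusted p = 0.10) were lost. Limma called 0 genes of the 5 related lists. An unadjusted p under 0.05 was found for 3, 2, 2, 3 and 9 of the COMPASS, P-TEFb, pausing, partner and target lists. Deviations of same-numbered KO and WT libraries had r of -0.199, -0.145 and -0.164, and those of differently numbered libraries lay between -0.206 and 0.232. With 3 libraries a group, these r cannot decide whether the numbers pair the libraries. In the block the differences of the 3 planned ratios were as reported. Their exact sign-flip p was 0.25 at best, the smallest that 3 pairs allow.

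Without the filter 525 of 35869 genes (1.46%) and 0 members were called. An unadjusted p under 0.05 was found for 6 of 10 members and for 7484 genes in all. The members lost were Kmt2a (1.13, limma adjusted p = 0.073), Mllt3 (1.12, 0.073), Mllt1 (-0.29, 0.083) and Aff1 (0.32, 0.085). Of the lists 1 COMPASS gene and 0 genes of the others were called. A mean of at least 5 TPM gave 1578 of 10041 genes (15.7%) and 1 of the partners. Array weights gave 8428 genes (62.1% of all tested) and 7 members, with Men1 (0.18), Psip1 (-0.205) and Dot1l (-0.31) added. They gave 11, 10, 8 and 5 of the COMPASS, P-TEFb, pausing and partner lists. Quantile normalization, where 22.6% of all genes were called, added Dot1l (-0.33, limma adjusted p = 0.048) and Mllt10 (-0.32, 0.044), with 4 COMPASS genes and 1 partner. Without the mean-variance trend, where 16.6% of all genes were called, 1 gene each of the COMPASS, P-TEFb and partner lists was called. Without both replicates numbered 1, 7569 genes (55.8%) and 7 members were called, with Men1 (0.19), Psip1 (-0.21) and Dot1l (-0.34) added. That fit also called 10, 11, 7 and 5 genes of the COMPASS, P-TEFb, pausing and partner lists. A pseudocount of 5 turned the log2 difference of the Kmt2a over Mllt3 ratio to 0.15, against -0.05 without one. The cause of these shifts was not tested.

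Leaving out 1 library gave between 0 and 4850 genes called and between 0 and 6 members. The log2 fold change lay between 0.96 and 1.26 for Kmt2a, 0.99 and 1.27 for Mllt3, 0.27 and 0.37 for Aff1 (0.41 without both replicates numbered 1), -0.35 and -0.25 for Mllt1, 0.13 and 0.19 for Men1, -0.30 and -0.20 for Dot1l, -0.15 and -0.014 for Psip1, and -0.13 and 0.036 for Aff4. The 5 lists gave 0 to 7, 0 to 4, 0 to 3, 0 to 4 and 0 to 9 calls. The reads behind each TPM are unknown, so counting error could not be given.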
